A study of Mus musculus with 4 samples.

Results

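The genes described here are 38 genes of autophagy and of lysosome biogenesis, taken by name from a table of accessible chromatin regions in muscle stem cells. The regions whose deposited gene name is on this list number 35 of 35019, and they are linked to 32 of the 38 genes. The remaining 6 genes (Becn1, Atg12, Atg13, Atg9a, Atg4b and Atg4a) have 0 linked regions in the table. Accessibility was measured by ATAC-seq, in which the Tn5 transposase cuts and tags open chromatin, in quiescent satellite cells isolated by flow cytometry. The cells came from mice with muscular dystrophy, genotype mdx, and from wild type mice, with 2 libraries per genotype. The mdx mouse carries a mutation of the dystrophin gene Dmd in every cell, so any difference can arise in the stem cell or in the diseased muscle around it. Age, sex and strain background are not given in the labels. The design text speaks of 3 mice per condition. The labels do not say whether each library came from its own animal. The p-values therefore reflect only how much these libraries vary, and that variation may be technical.

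Autophagy encloses cell content in a double membrane, the autophagosome, and delivers it to the lysosome for breakdown. The ULK1 kinase complex starts the process, the class III phosphatidylinositol 3-kinase complex marks the membrane, ATG9 and ATG2 supply lipid, and 2 ubiquitin-like conjugation systems attach proteins of the ATG8 family (LC3 and GABARAP) to the growing membrane. Cargo receptors such as p62, the product of Sqstm1, bind ATG8 proteins and bring their cargo along. The transcription factors TFEB and TFE3 bind the CLEAR element, an E-box found before the start of many lysosomal and autophagy genes. In satellite cells a basal flow of autophagy is known to help maintain quiescence.

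All values below are scaled reads, that is, reads in a region multiplied by 1 factor per library by the authors and rounded. They were not adjusted for region width, and a region called more accessible below has the higher value. Coordinates are mm10 as deposited. Reads in the listed regions numbered 3208475 in mdx replicate 1, 3607633 in mdx replicate 2, 3693096 in wild type replicate 1 and 8165206 in wild type replicate 2, and the last has the smallest counting error. Promoter regions, those within 1 kb of the start of their linked gene, took 52.8% and 57.2% of nuclear scaled reads in mdx cells and 64.1% and 61.1% in wild type. This share moves with genotype, and its part in the results below was not tested. All 10 satellite cell markers (among them Pax7, Myf5 and Cdh15) had a linked region, with summed values of 1410 to 1426 in mdx and 1599 to 1745 in wild type. Calcr, Spry1 and a Chrdl2 region 3449 bp from its start were lower in both mdx libraries. A Cdh15 region 3944 bp from its start was higher in both. The groups overlapped at the other satellite cell regions, those of Pax7 and Myf5 among them. Regions of 6 of 7 fibro-adipogenic markers summed to 700 to 712 in mdx and 461 to 519 in wild type, and those of 2 of 6 muscle fibre markers to 293 to 299 and 141 to 190. In the fibro-adipogenic list the difference came mainly from Col1a2 and Osr1, and both Pdgfra regions had lower means in mdx. In the test described below, 1 of its 10 regions passed as higher in mdx, at Col1a2 (log2 fold change 1.86, limma, adjusted p = 0.0157). Of the 4 muscle fibre regions 1 passed as higher, the Casq1 promoter (1.56, limma, adjusted p = 0.0344). In both lists 0 passed as lower, and over all tested regions 3.3% passed as higher and 0.881% as lower. Of the 13 satellite cell regions 0 passed. The endothelial, leukocyte and Schwann cell lists had 1 gene each with a linked region, and Pecam1, Cdh5, Ptprc, Cd68 and Sox10 had 0. The part of these markers in the results below was not tested. In bulk libraries, fewer cells with an open region and less opening per cell cannot be told apart.

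Member promoters lay slightly lower in mdx than in wild type cells, as promoters did in general, and 0 of the 35 member regions passed the test of the difference. The Atg2a promoter showed the largest difference, a log2 fold change of -1.07, and the values in mdx were 1.55-fold lower at both Atg3 and Atg4c. At Lamp1, Map1lc3a and Gabarapl2 the log2 fold changes were 0.02, 0.05 and -0.07. All 35 regions passed the filter on low values (at least 10 in at least 2 libraries). The test was limma on log2(value + 1), with the adjusted p taken over all 33161 tested regions and a threshold of 0.05. In this comparison 4.18% of all tested regions passed, 3.3% higher and 0.881% lower in mdx (limma, Benjamini-Hochberg). Of 10139 tested promoters of named genes 2.23% passed, 0.444% higher and 1.79% lower, and of the tested distal regions 5.09%, of which most were higher in mdx (4.65%). At an unadjusted p under 0.05, 4 of 35 member regions were lower in mdx and 0 were higher (limma). Over all tested regions these shares were 9.15% lower and 13.8% higher. All 4 are promoters, and among all named promoters 18.9% were lower at that level and 2.19% higher. With 2 libraries against 2, an exact two-sided permutation test of a single region cannot go below p = 0.333.

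Across the 32 genes, each represented by its promoter region, the log2 fold change had a median of -0.34, and that of all named promoters was -0.26. The values ran from -1.07 for Atg2a to 0.19 for Atg7, and 29 of 32 were below 0, which is 90.6% against 77.1% of all named promoters. In 18 of the 32 both mdx libraries lay under both wild type libraries, in 0 both lay above, and in 14 the groups overlapped. Among all named promoters the mdx libraries lay under the wild type libraries in 45.6% and above them in 8.72%. Over all tested regions the shares were 25.9% and 26.8%, and over distal regions 16.8% and 35.3%. Set against the median of all named promoters in the same library, the member median was higher by 0.15 and 0.20 (log2) in mdx and by 0.11 and 0.21 in wild type, so this distance overlapped between the groups. Member promoters had a median level of 139.5 scaled reads, against 123.75 for all named promoters, and a median width of 575.5 bp against 542 bp.

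**Figure D1:**
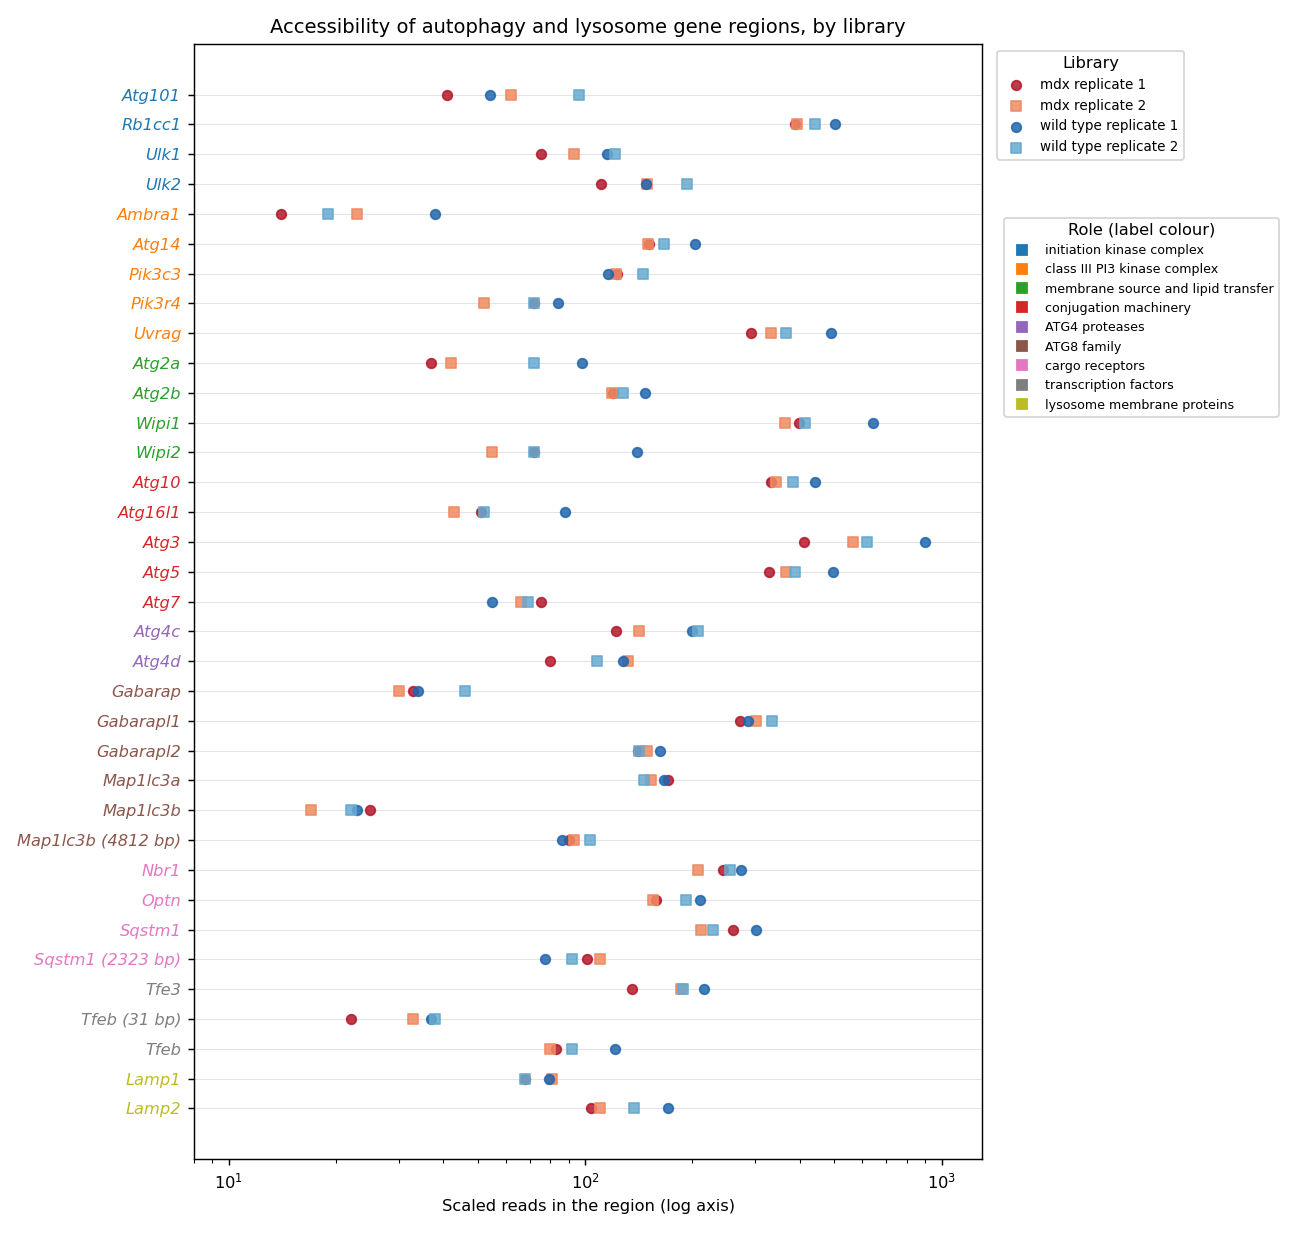
Scaled reads (horizontal log axis) in each of the 35 regions linked to an autophagy or lysosome gene, with 1 point per library. Labels give the gene, coloured by role, and in parentheses the distance from the start of a region that is not the one standing for its gene. Levels run from about 22 scaled reads at the Map1lc3b promoter to 623 at Atg3, and the spread between libraries of 1 genotype is often as wide as the gap between genotypes.

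The promoters of Lamp1, Atg3, Atg5 and Atg2a are printed because the first 3 carry the E-box core CACGTG before the start inside the open region, and because Atg2a had the largest difference between the genotypes. Each run holds 110 bases, 5′ to 3′ on the gene's strand, from RefSeq (GRCm38.p6), with every CACGTG in capitals. The runs of Lamp1, Atg5 and Atg2a end at the base before the RefSeq start, and that of Atg3 ends 44 bases short of it.
Lamp1, chr8:13159051-13159160, plus strand: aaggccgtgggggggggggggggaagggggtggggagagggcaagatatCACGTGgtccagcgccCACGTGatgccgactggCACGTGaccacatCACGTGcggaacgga
Atg3, chr16:45158675-45158784, plus strand: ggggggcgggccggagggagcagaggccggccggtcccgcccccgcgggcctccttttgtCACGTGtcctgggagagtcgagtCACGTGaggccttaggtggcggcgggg
Atg5, chr10:44268229-44268338, plus strand: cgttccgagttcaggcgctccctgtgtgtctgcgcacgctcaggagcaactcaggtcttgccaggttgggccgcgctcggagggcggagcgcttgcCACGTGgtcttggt
Atg2a, chr19:6241558-6241667, plus strand: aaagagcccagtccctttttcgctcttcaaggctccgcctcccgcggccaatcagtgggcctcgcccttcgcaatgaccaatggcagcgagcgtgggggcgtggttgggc

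Lamp1 has 4 copies of CACGTG within the 61 bases before its start. Atg3 has 2, which begin 94 and 71 bases before its start, and Atg5 has 1. RefSeq promoter windows (250 bases before to 50 after a start) were matched for 28 of the 32 genes, and 30 of their 33 windows overlap a deposited region. CACGTG, which reads the same on both strands, occurs in 4 of these 30 (13.3%), those of Lamp1, Atg3, Atg5 and Atg14, against 10.6% of all 11229 windows that overlap a deposited region. At least 2 copies are found in 2 of the 30 and in 1.16% of the 11229. At least 4 copies are found in Lamp1 alone of the 30, and in 4 of the 11229. In Atg14 the letters span the start itself, and Atg7 has them in a window that overlaps none of the regions. The longer TCACGTG, on either strand and always overlapping CACGTG, occurs in 3 of the 30 (10.0%) and in 6.38% of the 11229. The FoxO element GTAAACA and the AP-1 element TGACTCA, searched on both strands, occur in 0 of the 30, against 2.28% and 3.40% of the 11229. These are matches of letters, not bound sites. The 4 promoters with CACGTG had log2 fold changes of 0.02 for Lamp1, -0.63 for Atg3, -0.34 for Atg5 and -0.28 for Atg14. Differences between these promoters were not tested.

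In the complex that starts autophagy, all 4 genes with a linked region had lower mean values in mdx. Ulk1, the kinase that receives signals from mTORC1 and AMPK, held 75 and 93 scaled reads in mdx cells and 115 and 121 in wild type. Here and below the 2 values of a genotype are given in order of replicate number. The region spans bases 110809865 to 110810345 of chromosome 5, with its centre 8 bp from the start of Ulk1. The groups did not overlap, and the log2 fold change was -0.49 with SE 0.27 (95% interval -1.07 to 0.09, limma, adjusted p = 0.294). Rb1cc1, which encodes the scaffold FIP200, had the most accessible promoter of the complex, with 388 and 393 in mdx and 503 and 443 in wild type. Its 2 mdx values lay close together and below both wild type values, at a log2 fold change of -0.27 (limma, adjusted p = 0.366). The Atg101 promoter, of the protein that stabilises ATG13, held 41 and 62 in mdx and 54 and 96 in wild type, overlapping between the groups at a log2 fold change of -0.51, which ran from -0.92 to -0.10 when 1 library was left out. Ulk2, the kinase related to Ulk1, held 111 and 149 in mdx and 148 and 193 in wild type, and the groups overlapped by 1 scaled read at a log2 fold change of -0.39.

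The class III phosphatidylinositol 3-kinase group makes the lipid signal that recruits later factors. Its nearest member to a difference was Uvrag, a Beclin 1 partner that also acts in endosome traffic, with 293 and 333 scaled reads in mdx cells and 490 and 366 in wild type on chromosome 7 from 99140972 to 99141636. Both mdx libraries were lower than both wild type libraries, and the log2 fold change was -0.44 with SE 0.20 (95% interval -0.86 to -0.01, limma, adjusted p = 0.205). Wild type replicate 1 sets much of this value, which was -0.23 without it. Pik3c3, the catalytic subunit VPS34, held 123 and 122 in mdx and 116 and 145 in wild type, overlapping at -0.08 (95% interval -0.62 to 0.46). Its regulatory subunit Pik3r4 held 72 and 52 in mdx and 84 and 72 in wild type, meeting at 72, with a log2 fold change of -0.34. Atg14, which directs the complex to autophagosome formation, held 151 and 150 in mdx and 203 and 166 in wild type, so the mdx libraries were the lower ones, at -0.28. The Ambra1 promoter, of a Beclin 1 regulator, was among the 3 least accessible, with 14 and 23 in mdx and 38 and 19 in wild type. These values stand for 10 and 20 reads in the mdx libraries and 31 and 39 in wild type libraries, and the log2 fold change of -0.56 has the widest 95% interval of the members, -1.68 to 0.56. Leaving out wild type replicate 1 gave -0.076, and leaving out wild type replicate 2 gave -1.04.

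The role of membrane source and lipid transfer holds Atg2a and Atg2b together with Wipi1 and Wipi2. Its median log2 fold change was -0.55 over 4 promoters, the lowest of the 9 roles in the reported fit. With voom it was -0.44, above the -0.47 of the initiation complex. Without mdx replicate 2 it was -0.43, above the initiation complex (-0.62), the ATG4 proteases (-0.64) and the transcription factors (-0.46). Without wild type replicate 1 it was -0.16, and only the ATG8 family (-0.09) and the lysosome membrane proteins (-0.11) lay above it. The lowest role there was the initiation complex, at -0.56. Atg2a, which encodes a lipid transfer protein that bridges the endoplasmic reticulum and the growing membrane, held 37 and 42 scaled reads in mdx cells and 98 and 72 in wild type, on chromosome 19 from 6241427 to 6241757. The highest mdx value lay well under the lowest wild type value. The log2 fold change was -1.07 with SE 0.33 (95% interval -1.79 to -0.36), which missed the threshold (limma, adjusted p = 0.0821). It was under it in 2 of 12 alternative settings that kept all libraries, cyclic loess and distal medians set equal, with adjusted p from 0.0108 to 0.194 over the 12. Atg2b, which encodes the second protein of this kind, held 120 and 119 in mdx and 147 and 128 in wild type. At -0.20 (95% interval -0.72 to 0.33) it lay above Atg2a, and the 2 intervals overlap. Its region also holds the start of the neighbouring gene Gskip.

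The other genes placed in this role that have a linked region encode WIPI proteins, which read the lipid signal of the class III kinase. Wipi1 had one of the 3 most accessible member promoters, with 397 and 364 scaled reads in mdx cells and 643 and 414 in wild type. Both mdx values were lower, and the log2 fold change was -0.44, SE 0.21 (limma, adjusted p = 0.234). Without wild type replicate 1 the value was -0.12. Wipi2, the relative that recruits ATG16L1, held 72 and 55 in mdx and 140 and 72 in wild type, so the groups met at 72, with a log2 fold change of -0.67 (limma, adjusted p = 0.276). It was -0.19 without wild type replicate 1. In both genes that library stood above the other 3.

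Within the conjugation machinery, the Atg3 promoter held the most scaled reads of all members, above 94.3% of named promoters. Its region is 1101 bp wide, and this level is not adjusted for width. Atg3 is the enzyme that transfers ATG8 proteins to lipid, and its promoter, printed above with 2 E-box cores, held 410 and 566 scaled reads in mdx cells and 898 and 618 in wild type, on chromosome 16 from 45158239 to 45159340. The groups did not overlap, but mdx replicate 2 and wild type replicate 2 lay close together. The log2 fold change was -0.63 with SE 0.21 (95% interval -1.08 to -0.18), which missed the threshold (limma, adjusted p = 0.101). It was under it in 3 of 12 alternative settings with all libraries, over which the adjusted p ran from 0.0111 to 0.375. Without wild type replicate 1 the value was -0.36. The region also covers the start of Slc35a5 on the other strand, and the reads of the 2 starts cannot be separated. The same holds for the regions of Atg5, Gabarapl1 and Lamp2, which each cover a RefSeq start of another gene.

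The remaining conjugation genes gave smaller or less certain differences. Atg16l1, the scaffold that places the conjugation enzymes on the membrane, held 51 and 43 scaled reads in mdx cells and 88 and 52 in wild type, so that mdx replicate 1 and wild type replicate 2 were nearly equal, at a log2 fold change of -0.52 (limma, adjusted p = 0.409), or -0.15 without wild type replicate 1. Atg5, the acceptor of ATG12, held 328 and 367 in mdx and 495 and 389 in wild type, at -0.34 (limma, adjusted p = 0.303). Atg10, the enzyme that joins them, held 333 and 344 in mdx and 441 and 384 in wild type, at -0.28 (limma, adjusted p = 0.372). In both the mdx libraries were the lower ones. Atg7, the activating enzyme of both conjugation systems, had the highest log2 fold change of the 32 promoters, 0.19 (95% interval -0.48 to 0.86). Its values overlapped, with 75 and 66 in mdx and 55 and 69 in wild type.

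ATG4 proteases trim ATG8 proteins before conjugation and release them afterwards. The Atg4c promoter held 122 and 142 scaled reads in mdx cells and 200 and 208 in wild type, on chromosome 4 from 99193801 to 99194465. Replicates of each genotype lay close together and the groups were well apart. The log2 fold change was -0.63 with SE 0.22 (95% interval -1.12 to -0.14, limma, adjusted p = 0.124), and it ran from -0.74 to -0.52 when any 1 library was left out, a narrower range than for Atg3. It passed in 1 of 12 alternative settings with all libraries, distal medians set equal (adjusted p from 0.0186 to 0.294 over the 12). Atg4d held 80 and 132 in mdx and 128 and 108 in wild type, with overlapping groups and a log2 fold change of -0.19, which turned to 0.17 without mdx replicate 1.

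ATG8 family genes had the median log2 fold change closest to 0 of the roles, -0.11 over 5 promoters, with overlapping groups in 4 of them. With promoter medians set equal it was 0.087, and the cargo receptors (-0.035) and the lysosome membrane proteins (-0.0498) were closer to 0. With autosomes only, the lysosome membrane proteins, with 1 promoter left, were closer to 0, at 0.018. Map1lc3a, an LC3 gene, held 171 and 153 in mdx and 166 and 146 in wild type, at 0.05 (95% interval -0.44 to 0.55). Gabarapl2, also known as GATE16, held 141 and 149 in mdx and 162 and 142 in wild type, at -0.07 (-0.57 to 0.44). Gabarapl1, a close relative of Gabarap, held 272 and 301 in mdx and 286 and 334 in wild type, at -0.11 (-0.53 to 0.30). The widest of these 3 intervals reaches -0.57. Gabarap, which names the subfamily, held 33 and 30 scaled reads in mdx cells and 34 and 46 in wild type, and its log2 fold change of -0.32 has an interval of -1.17 to 0.53. Map1lc3b, which encodes the LC3 protein most used as a marker of autophagosomes, has 2 linked regions. The small region at its start held 25 and 17 scaled reads in mdx cells and 23 and 22 in wild type, the lowest level of all members, from 18 and 15 reads in mdx cells and 19 and 45 in wild type. A region 4812 bp before the start held 90 and 93 in mdx and 86 and 103 in wild type, so the distal region was the more accessible in all 4 libraries. Both had overlapping groups, at -0.12 and -0.04.

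**Figure D2:**
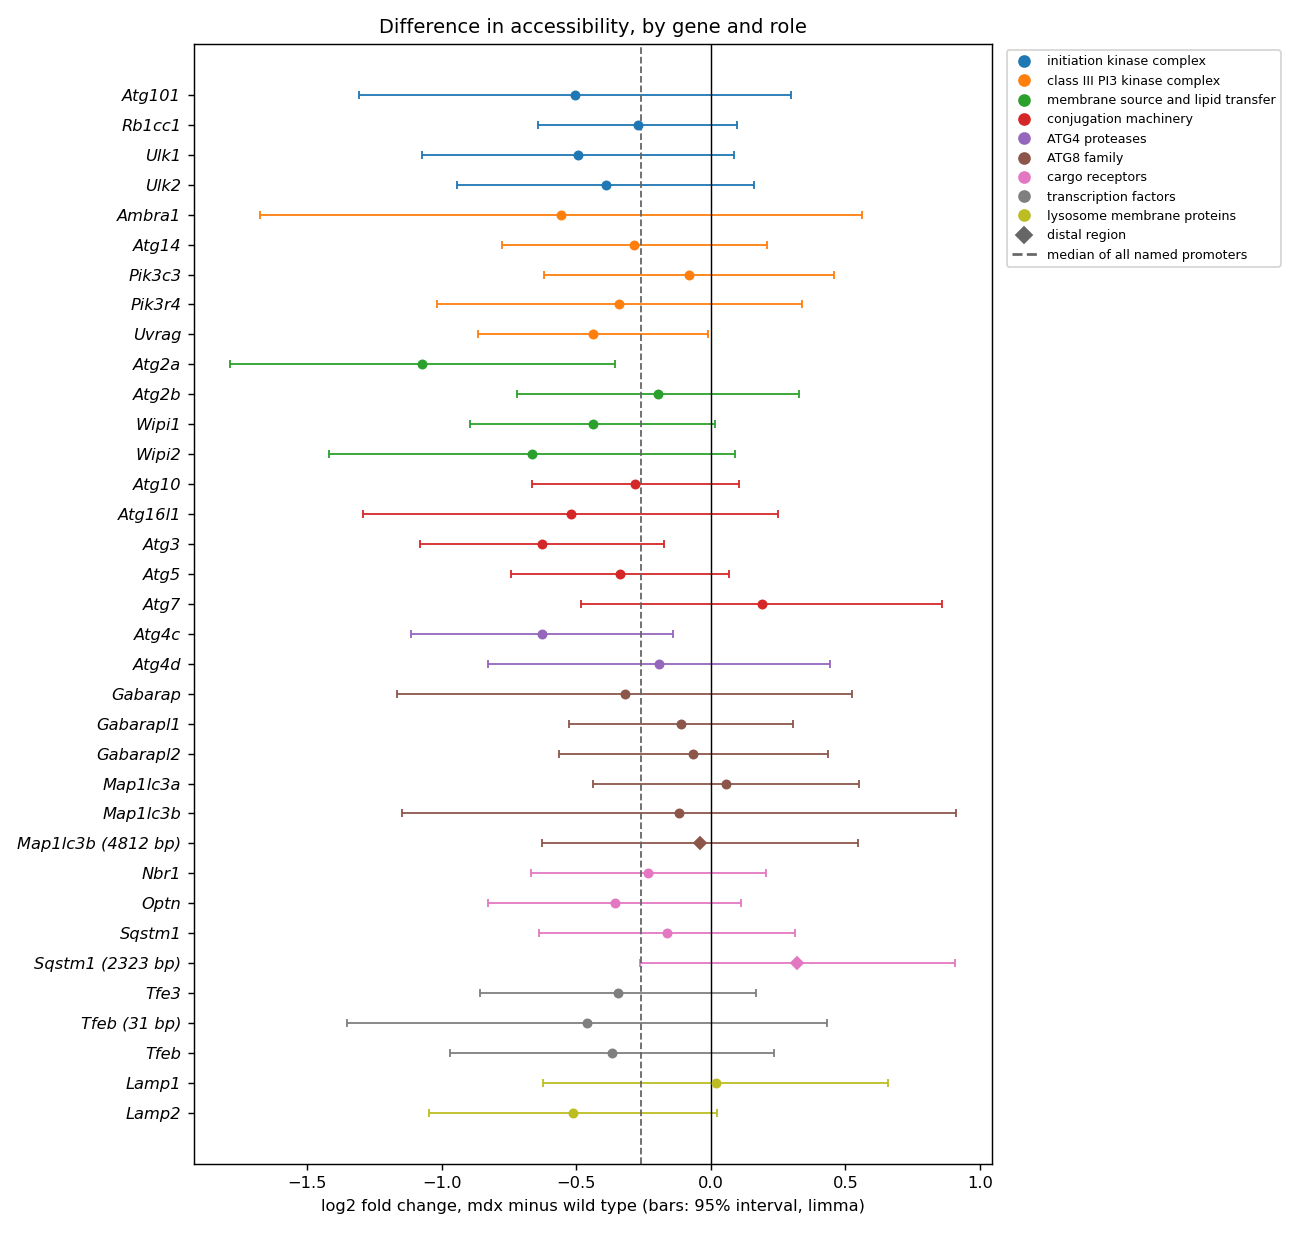
Difference between mdx and wild type as a log2 fold change (horizontal axis) for the 35 regions with 95% limma intervals, coloured by role, with diamonds for the 2 distal regions. The dashed line marks the median of all named promoters at -0.26. Most points lie around it, and Atg2a, at -1.07, lies farthest to the left.

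Among the cargo receptors, the Sqstm1 promoter held 260 and 211 scaled reads in mdx cells and 302 and 228 in wild type, with overlapping groups and a log2 fold change of -0.16 (limma, adjusted p = 0.697). A region 2323 bp before the Sqstm1 start pointed the other way, with 101 and 110 in mdx and 77 and 92 in wild type. There both mdx libraries were above both wild type libraries, at a log2 fold change of 0.32 (95% interval -0.27 to 0.91, limma, adjusted p = 0.514), in the only member region where that was so. Such an order held at 35.3% of all tested distal regions. Optn, encoding optineurin, a receptor in mitophagy, held 158 and 155 in mdx and 210 and 192 in wild type, non-overlapping at -0.36 (limma, adjusted p = 0.350). Nbr1, a receptor related to p62, held 243 and 208 in mdx and 274 and 255 in wild type, at -0.23 (limma, adjusted p = 0.526), in a region that also covers the start of another gene.

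The genes of the transcription factors of lysosome biogenesis had lower values in both mdx libraries, and neither passed. Tfeb has 2 regions at its start, of which the larger held 83 and 80 scaled reads in mdx cells and 121 and 92 in wild type and the smaller 22 and 33 in mdx and 37 and 38 in wild type. In both, the mdx libraries were the lower ones, at log2 fold changes of -0.37 (95% interval -0.97 to 0.23) and -0.46 (-1.35 to 0.43; limma, adjusted p = 0.459 and 0.539). Tfe3, its relative on the X chromosome, held 135 and 186 in mdx and 216 and 188 in wild type. The values of mdx replicate 2 and wild type replicate 2 were nearly equal, and the log2 fold change was -0.34 (limma, adjusted p = 0.413), or -0.12 without mdx replicate 1.

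LAMP1 and LAMP2 are the abundant glycoproteins of the lysosome membrane, and LAMP2A serves chaperone-mediated autophagy. Lamp1, whose promoter carries the 4 E-box cores printed above, held 68 and 81 scaled reads in mdx cells and 79 and 68 in wild type, on chromosome 8 from 13159078 to 13159653. The same value, 68, was the lowest of each genotype, and the log2 fold change was 0.02 (95% interval -0.62 to 0.66). Lamp2, on the X chromosome from 38455923 to 38456591, held 104 and 110 in mdx and 171 and 137 in wild type. Its groups did not overlap, and the log2 fold change was -0.51 with SE 0.25 (95% interval -1.05 to 0.02, limma, adjusted p = 0.238). The difference between Lamp1 and Lamp2 was not tested. Promoters on the X chromosome had a median of -0.29 over 371 named regions and autosomal ones -0.26, so both X-linked members were below either median.

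Of the 6 genes with 0 linked regions, 5 have a region within 1 kb of a RefSeq start that the table links to a neighbouring gene. These 5 regions are outside the member counts. The region at the start of Atg12, linked to Ap3s1, held 362 and 471 scaled reads in mdx cells and 539 and 579 in wild type, at -0.44 on the log2 scale (limma, adjusted p = 0.173). At a start of Atg4a the region linked to Psmd10 held 178 and 242 in mdx and 322 and 298 in wild type, at -0.58 (adjusted p = 0.135). The groups did not overlap in either. The region at Atg4b, linked to Thap4, was at -0.37, that at Atg9a, linked to Ankzf1, at -0.30, and that at Atg13, linked to Harbi1, at -0.10 with overlapping groups. None of the 5 passed (limma), and their reads cannot be assigned to either gene. Becn1, encoding Beclin 1, has 0 regions within 1 kb of its start.

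**Figure D3:**
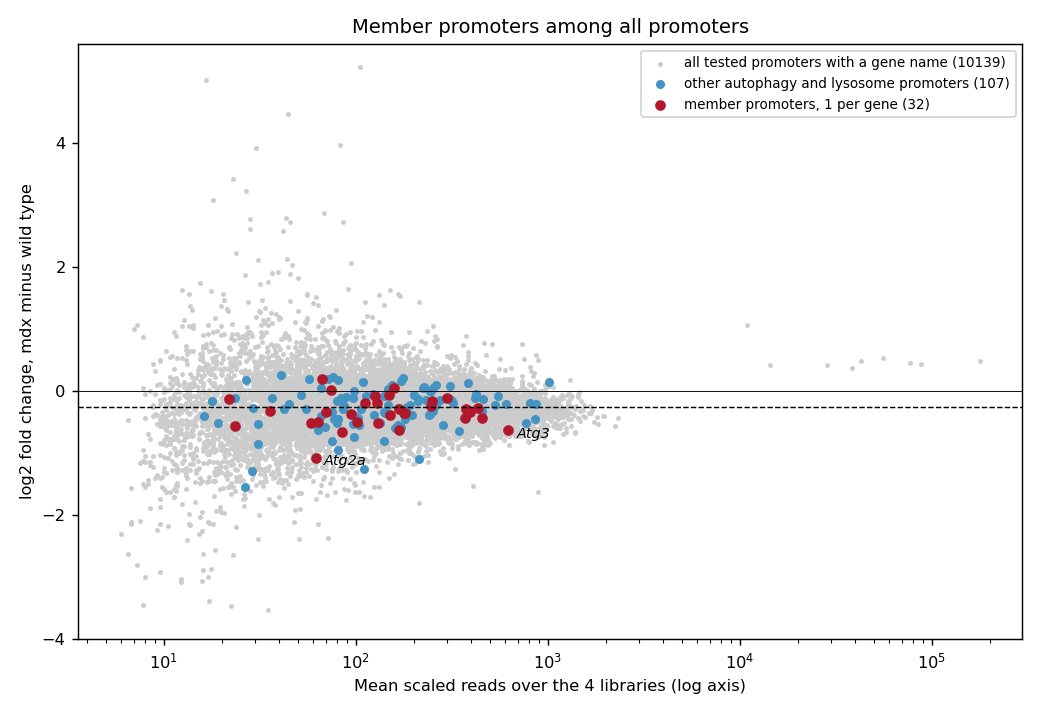
Log2 fold change, mdx minus wild type (vertical axis), against mean scaled reads (horizontal log axis) for 10139 named promoters (grey), 107 promoters of other autophagy and lysosome genes (blue) and 32 member promoters (red). The members lie within the grey cloud, around the dashed median at -0.26.

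A wider list of 133 autophagy and lysosome genes gave 113 tested regions for 106 genes, and 1 of them passed as lower in mdx and 0 as higher (limma), against 0.881% and 3.3% of all tested regions and 1.79% and 0.444% of named promoters. Over its 107 promoter regions the median log2 fold change was -0.23. The region that passed is the promoter of Tmem41b, a lipid scramblase of the endoplasmic reticulum needed for autophagosome formation, with 106 and 168 scaled reads in mdx cells and 344 and 239 in wild type. Its log2 fold change was -1.10 with SE 0.27 (limma, adjusted p = 0.0409), and the call ended with no filter on low values (0.0635), a pseudocount of 0.1 (0.0548) and no intensity trend (0.236). Over the 12 alternative settings with all libraries its adjusted p ran from 0.00194 to 0.236. When 1 library was left out the log2 fold change stayed between -1.43 and -0.77, and at that size the test called 0 of all regions.

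The next 3 of the wider list lay just beyond the threshold. Rragd, a Rag GTPase that brings mTORC1 to the lysosome, held 90 and 45 in mdx and 161 and 146 in wild type at its promoter, at -1.25 on the log2 scale (limma, adjusted p = 0.0512), and passed in 8 of 12 alternative settings (0.00196 to 0.226). Without mdx replicate 2 it was -0.76. Sh3glb1, encoding the Beclin 1 partner Bif-1, held 593 and 677 in mdx and 856 and 949 in wild type, at -0.51 (limma, adjusted p = 0.0771, and 0.0131 to 0.363 over the alternatives). A region 2370 bp before the start of Atp6v1g1, a subunit of the proton pump that acidifies lysosomes, was higher in both mdx libraries, with 185 and 160 against 56 and 108, at 1.13 (limma, adjusted p = 0.0601, and 0.0101 to 0.246). That value was 0.67 without wild type replicate 1. The promoter of the same gene was at -0.28.

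By role, the 13 tested promoters of vacuolar ATPase subunits had a median log2 fold change of -0.53 and were all below 0, with 5 lower at an unadjusted p under 0.05 (limma). Among all named promoters 77.1% were below 0 and 18.9% lower at that level. The 35 promoters of lysosomal hydrolases had a median of -0.11, with 21 below 0 and 1 lower at that level. Promoters of lysosomal membrane and nutrient sensing genes (28 regions) were at -0.24, and those of other autophagy genes (31 regions) at -0.29. The lists hold no member gene, and the differences between them were not tested.

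How far member promoters lay from 0 depended on how the libraries were scaled. With the promoter medians of the libraries set equal, the member median was -0.14 and that of all named promoters -0.06. With distal medians set equal they were -0.68 and -0.60, and 7 of 35 member regions passed as lower (Atg2a, Atg3, Atg4c, Lamp2, Uvrag, Wipi1 and Wipi2), which is 20.0%. Under that scaling 22.7% of named promoters and 10.4% of all regions passed as lower. The median over all regions, -0.01 as reported, went to 0.19 and to -0.35 in turn. The distance between members and all named promoters was -0.08 in each of the 3. It was 0.00 without wild type replicate 1, where both medians were -0.18.

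**Figure D4:**
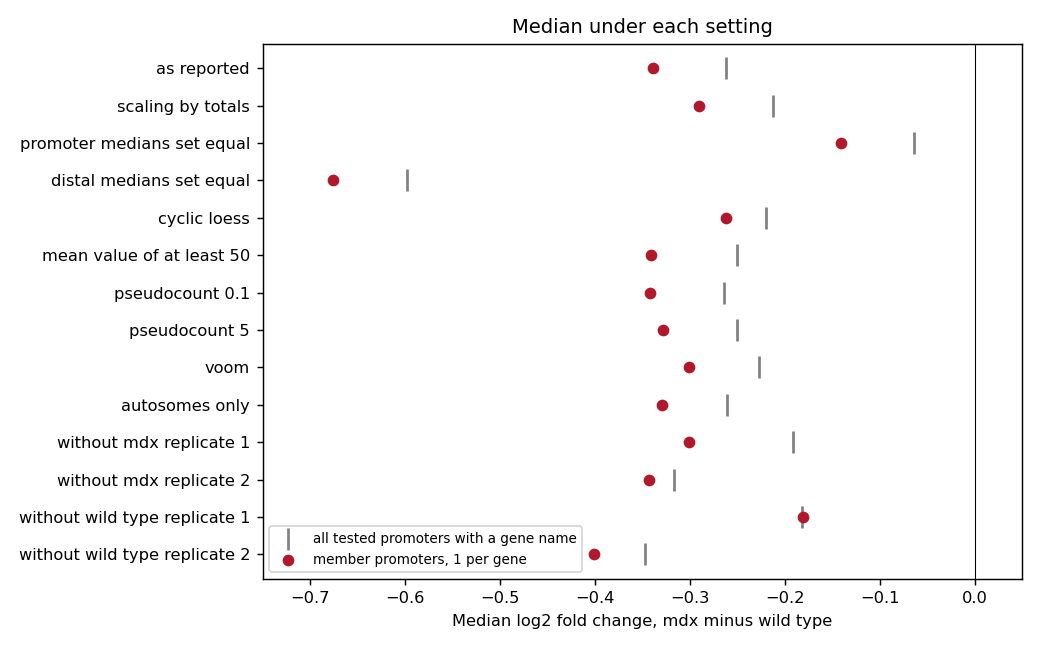
Median log2 fold change (horizontal axis) of the member promoters (red points) and of all named promoters (grey bars) under the reported and alternative settings (rows). Scaling moves both together, from -0.68 to -0.14 for the members, and the 2 medians coincide at -0.18 without wild type replicate 1.

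Away from the starts, the 2 distal member regions (Sqstm1 and Map1lc3b) were at 0.32 and -0.04, while 30 of the 33 member promoter regions were below 0. All tested distal regions had a median of 0.19 and all tested promoter regions, named or not, -0.25. Regions inside member genes that the table links to no gene are given under the other observations.

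**Figure D5:**
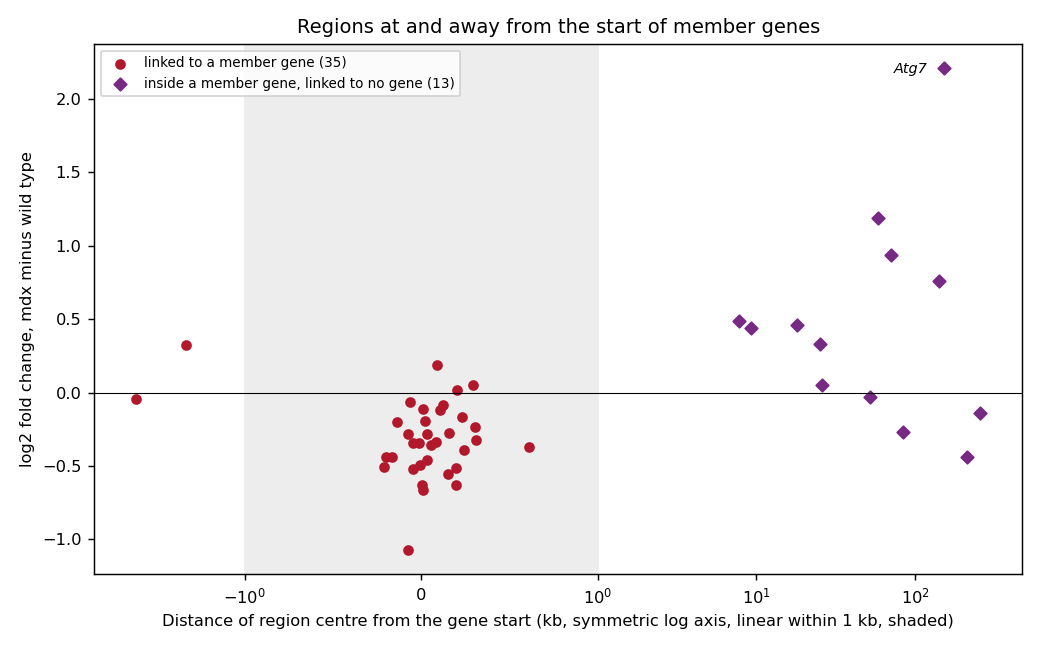
Log2 fold change, mdx minus wild type (vertical axis), against the distance of the region centre from the gene's start (horizontal symmetric log axis, kb, linear in the shaded 1 kb on either side) for the 35 linked regions (red) and 13 regions inside a member gene with no linked gene (purple). Points at the starts lie mostly below 0, and the highest point, at 2.21, is a region inside Atg7.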

How the data were processed

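ATAC-seq libraries of quiescent satellite cells, 2 from mdx and 2 from wild type mice, were compared. The submitters' processing notes name MACS2 2.1.0, DESeq, DESeq2, STAR 2.5.3a, Trimmomatic 0.33 and Picard 2.9.0, with mm10 as the build. What each did, how duplicates and the Tn5 shift were treated and whether peaks were pooled is not given in the sources used here. In the table the authors deposited 1 value per region and library, treated here as a score: reads times 1 factor per library, rounded. The factors, read from the whole numbers that never occur or occur too often, were 1.382, 1.162, 1.222 and 0.492 for mdx replicates 1 and 2 and wild type replicates 1 and 2. Reads are values divided by these. Region starts are printed as deposited, and whether they count from 0 or 1 is not stated.

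The fit was limma 3.58.1 (R 4.3.3) with an intensity trend on log2(value + 1) and genotype as its single term, over regions with at least 10 in at least 2 libraries, with Benjamini-Hochberg adjustment over all of them. The fit was also run on simulated data with changes of at least 2-fold, and most member differences were smaller. That run is therefore no measure of how well differences of this size are found. Positive fold changes mean higher in mdx. They are on the log2(value + 1) scale and so understate low regions. Members come from the deposited gene names. The members, the lists and the naming rule (the 8 smallest p, the 3 highest and 3 lowest levels, genes with several regions, the factors and LAMP genes, the 2 largest differences per role, and the 4 smallest p of the wider list) were chosen with earlier results of these data known. Values of other members were added. Set tests were not run. Python 3.11.15 with pandas 2.3.3 served for the tables. Neighbouring starts, gene bodies and promoter sequences are from RefSeq GRCm38.p6, which gives no exons here. Alternatives covered scaling, filter, pseudocount, trend, voom, autosomes, promoter window, threshold, a replicate block and omission of single libraries. A crosswise pairing was added after seeing the data and is kept out of the counts of alternative settings in which a region passed.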

Additional observations from a re-analysis of the deposited data

How the results depend on the processing

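Depth limits the least accessible promoters (Ambra1, Gabarap, Map1lc3b), which have the widest intervals among those that stand for the 32 genes. Of 35 member regions, 0 passed as reported, 7 with distal medians set equal, and 1 each with cyclic loess (Atg2a), a mean value of at least 50 (Atg3) and an adjusted p threshold of 0.1 (Atg2a). The count was 0 in the other alternatives without a block, leaving out each library included. A fit that leaves out a library assumes that the lone library of its group varies like the other group. Over all regions, 1387 passed (78.9% higher), and 4687 with distal medians set equal (26.1% higher), 1980 with promoter medians set equal (92.0% higher), 2245 with cyclic loess, 787 with no filter, 2 with no intensity trend, 3372 at a threshold of 0.1, and 0 to 0 when 1 library was left out. In the wider list the count of 1 became 3 with scaling by totals, 2 with promoter medians set equal, 20 with distal medians set equal, 5 with cyclic loess, 6 with a mean of at least 50, 3 with a pseudocount of 5, 4 with voom, 2 with autosomes only and 7 at a threshold of 0.1. It became 0 with no filter, a pseudocount of 0.1 or no intensity trend, and 0 to 0 without 1 library. The cause was not tested. The member median of -0.34 became -0.14 with promoter medians set equal and -0.68 with distal medians set equal, and ran from -0.40 to -0.18 when 1 library was left out.

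The replicate block, with the titles' numbers as a term, gave 2761 calls over all regions, 1 among members (Atg3, adjusted p = 0.0450, limma) and 3 in the wider list. The labels name nothing that same-numbered libraries share beyond the number, and their deviations correlated at -0.109 across regions. Pairing them crosswise, chosen after seeing the data, gave 5461, 5 and 12 calls.

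Over all 35 member regions, signs turned as follows, in none that had passed as reported. Setting promoter or distal medians equal shifts every region alike. With promoter medians set equal Atg2b went to 0.00038, Atg4d to 0.0057, the Sqstm1 promoter to 0.035, the Map1lc3b promoter to 0.079, its distal region to 0.16, Gabarapl1 to 0.087, Pik3c3 to 0.12 and Gabarapl2 to 0.13. With distal medians set equal the distal Sqstm1 region went to -0.015, Atg7 to -0.15, Map1lc3a to -0.28 and Lamp1 to -0.32. With cyclic loess Lamp1 went to -0.098 and Gabarapl1 to 0.022, and the distal Map1lc3b region to 0.0086 with scaling by totals. Without 1 library the range was -0.55 to 0.17 for Atg4d, -0.38 to 0.15 for the Map1lc3b promoter, -0.17 to 0.088 for its distal region, -0.37 to 0.039 for the Sqstm1 promoter, -0.24 to 0.078 for Pik3c3, -0.22 to 0.00067 for Gabarapl1, -0.16 to 0.029 for Gabarapl2, -0.037 to 0.15 for Map1lc3a and -0.11 to 0.14 for Lamp1.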

Other observations

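Inside the bodies of the 38 genes, by RefSeq position, lie 15 further regions that the table links to no gene, and 13 of them, in 8 genes, passed the filter on low values. They were looked up after the linked regions had been examined. Their median log2 fold change was 0.44, with 9 above 0 and 4 below. The median of all tested distal regions was 0.19. In 8 of the 13 both mdx libraries lay above both wild type libraries, an order seen at 35.3% of all tested distal regions. Among these 8, some met the filter only through their mdx values. They are the regions inside Atg2b (wild type values 9 and 19) and Ulk1 (9 and 12), and 1 inside Atg7 (10 and 9). The counts and the median of these regions therefore support nothing about the genes.

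A region inside Atg7 passed as higher in mdx, 1 of the 13, against 4.65% of all tested distal regions (limma, adjusted p under 0.05). It lies on chromosome 6 from 114794793 to 114795015, 151807 bp downstream of the Atg7 start, and whether it is exonic or intronic was not read here. Its values were 61 and 37 in mdx and 10 and 9 in wild type. The log2 fold change was 2.21, SE 0.48, 95% interval 1.16 to 3.26 (limma, adjusted p = 0.0283). Without its mdx values the region would not have met the filter, since 1 wild type library was at 10 and the other under it. The count of 1 therefore supports nothing about the genes. The call held in 10 of 11 alternative settings with all libraries and ended with no intensity trend (adjusted p = 0.104), and its adjusted p ran from 0.00324 to 0.104 over them. The region had a mean under 50 and was therefore absent from the stricter filter. Without any 1 library the log2 fold change ran from 1.86 to 2.56, where the test called 0 of all regions. The Atg7 promoter stood at 0.19, and the other 2 tested regions inside the gene at 0.44 and -0.27.

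A region inside Atg10 had values of 46 and 29 in mdx and 15 and 16 in wild type. Its log2 fold change was 1.19, and it did not pass (limma, adjusted p = 0.153). The Tfeb body holds a region with 72 and 70 in mdx and 57 and 82 in wild type, where the groups overlapped.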
